A study of Mus musculus with 6 samples.

Results

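The G2 and M phase genes are a list of 41 genes whose products carry a cell through mitotic entry, spindle assembly, the spindle checkpoint and cytokinesis, measured here in hearts of mouse embryos with and without Rnd3. Members were taken where a probe set carried the symbol of that gene alone in the platform's annotation, and the probe set with the highest mean log2 signal over all arrays stood for the gene. This gave 40 members of 18193 genes with such a probe set. The expression of cyclin B1 (Ccnb1) was not analysed here, and only its promoter was read. The 3 knockout (KO) arrays hold heart RNA of E10.5 embryos with a global gene trap of Rnd3, also called RhoE, and the 3 wild-type (WT) arrays hold heart RNA of E10.5 embryos without it, all on a C57BL/6N background and with no treatment listed. The knockout was global, so the heart developed in an embryo that lacked Rnd3 in its other tissues too, and E10.5 is the start of the period in which knockout embryos die. RNA came from embryonic heart tissue, and whether an array holds 1 heart or several is not stated in the sources used here. Each array gave MAS5 signals, which are background-corrected fluorescence values on a linear scale, for a whole-genome Affymetrix chip.

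The list follows the course of mitosis. Cyclin-dependent kinase 1, bound to A- and B-type cyclins and freed by Cdc25 phosphatases, starts mitosis. Polo and Aurora kinases then build the spindle, and kinetochores hold back the anaphase-promoting complex through the spindle checkpoint until every chromosome is attached. Transcripts of these genes accumulate in late S, G2 and M phase, largely through the MuvB complex with B-Myb and FoxM1, which reads a promoter element called the cell cycle genes homology region (CHR), and through the CCAAT-binding factor NF-Y. In the mid-gestation heart, cardiomyocytes still divide, so mitotic transcripts come from the muscle as well as from endocardium, mesenchyme, epicardium and the blood within it. Rnd3 is an atypical small GTPase that restrains RhoA and its kinase ROCK1, and the RhoA pathway also drives the contractile ring in cytokinesis.

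Rnd3 itself read 5.89, 12.3 and 121 on KO arrays 1, 2 and 3, against 909, 954 and 862 on the WT arrays. Sex-linked genes differed between the groups. Xist, transcribed from the inactive X chromosome of female cells, read 539, 8884 and 28.4 on KO arrays 1, 2 and 3, against 10251, 12474 and 11878 on the WT arrays. The Y-linked gene Eif2s3y read 2214, 793 and 2339 on the KO arrays, against 551, 312 and 385 on the WT arrays. Uty, also Y-linked, read 594, 297 and 532 on the KO arrays, against 192, 105 and 122 on the WT arrays. Kdm5d, Y-linked too, read 762, 335 and 633 on the KO arrays, against 212, 142 and 148 on the WT arrays. KO array 2 is the KO array whose sex-linked signals were nearest to the WT arrays. Its Y-linked signals were still above those of every WT array. Genotype and the sex of the tissue thus cannot be told apart in these groups. The defining genes of heart muscle were bright on every array: Tnnt2, cardiac troponin T, read 32147, 30876 and 31844 on the KO arrays, against 28236, 32260 and 32559 on the WT arrays. The ratio of 3' to 5' probe signal for Gapdh, a sign of RNA integrity, was 0.969 ± 0.0274 in KO and 1.11 ± 0.0175 in WT (SD, n = 3 each). For Actb the ratio was 2.40 ± 0.164 in KO and 2.52 ± 0.147 in WT, with overlapping arrays, and the part of RNA integrity in the results was not tested.

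Few G2 and M phase genes passed the test between KO and WT hearts. Of the 40 members, all above the low-signal limit on all 6 arrays, 2 fell, none rose and 38 did not pass an adjusted p of 0.05 (limma, Benjamini-Hochberg over 12712 genes). The 2 were Incenp, the scaffold of the chromosomal passenger complex, and Top2a, the topoisomerase that untangles chromosomes before they part. Among all genes tested 0.488% fell and 0.787% rose. The median log2 fold change of the members was -0.16, or 1.12-fold lower, beside -0.040 for all genes tested. The members ranged from -0.69 for Bub1b to 0.26 for Birc5, and 28 of 40 lay below 0, against 56.2% of all genes. That count was 24 without KO array 2 and 25 with arrays centred on their medians. In bulk tissue, fewer cells in G2 and M phase and less mitotic RNA per cell cannot be told apart.

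Counted without the adjustment over all genes, 14 members had p below 0.05 and were lower in KO, against 11.8% of all genes, and Birc5 alone was higher at that level, against 8.54%. For 15 members every KO array lay below every WT array, where 15.5% of all genes did so. For 2 members, Birc5 and Nusap1, every KO array lay above every WT array, against 10.8% of all genes. The list was proposed with earlier results of these arrays known, so these counts describe it and no test was made of the list.

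**Figure D1:**
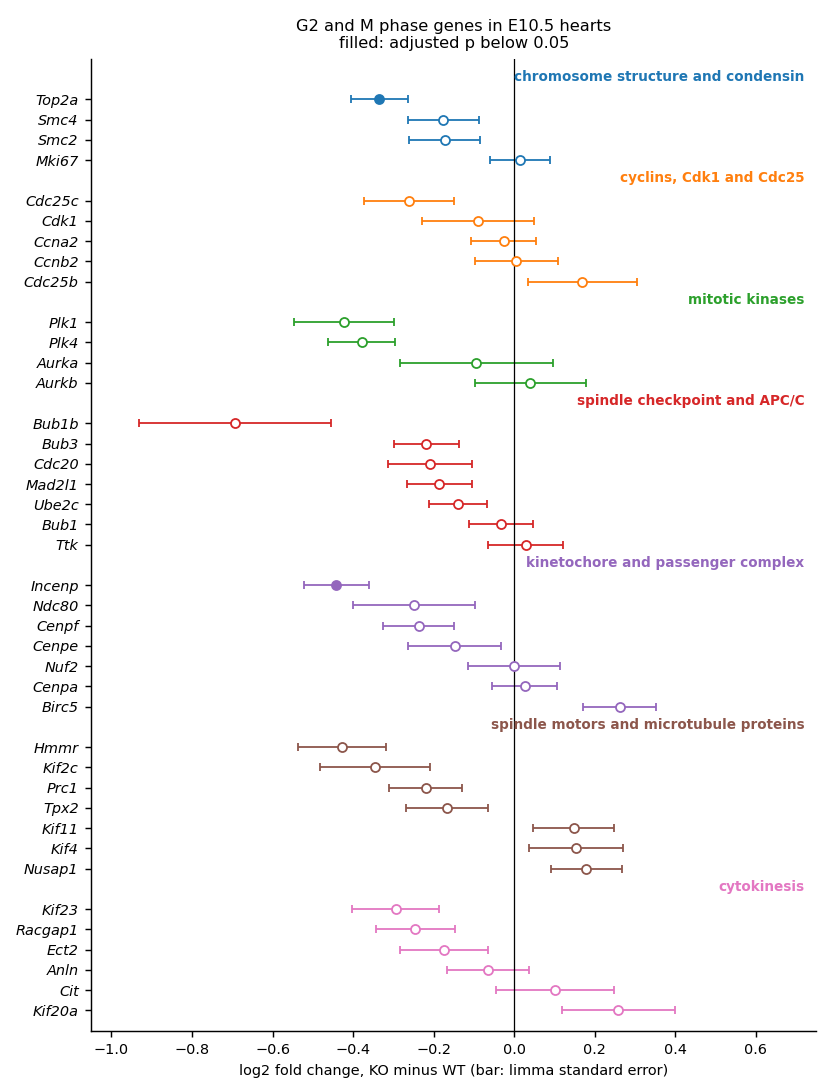
Log2 fold change, KO minus WT, of 40 G2 and M phase genes grouped by role; bars are limma standard errors (3 arrays per group), and filled points mark an adjusted p below 0.05. Incenp and Top2a are the 2 filled points, Bub1b lies furthest to the left at -0.69 and Birc5 furthest to the right at 0.26.

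Among proteins of chromosome structure, the topoisomerase Top2a fell while the proliferation marker Mki67, the surfactant of mitotic chromosomes, did not pass. Top2a, at chr11:98992947-99024199 in GRCm38.p6, read 6261, 6136 and 6470 on KO arrays 1, 2 and 3, against 8116, 7816 and 7860 on the WT arrays. The groups stood clear of one another, with spreads of 169 in KO and 162 in WT around means of 6289 and 7930 (SD, n = 3 each). The log2 fold change was -0.33 (SE 0.070, limma adjusted p = 0.049977), at the edge of the threshold. Mki67 read 7465, 6666 and 7179 in KO, against 6974, 7174 and 6928 in WT. Its KO arrays lay on both sides of the WT arrays, at a log2 fold change of 0.015 (SE 0.075, adjusted p = 0.932). The ATPases of the condensin complex, Smc2 and Smc4, had -0.17 (SE 0.089) and -0.18 (SE 0.088), and neither passed.

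No cyclin, nor their kinase, passed the test. Cdk1, which drives mitotic entry, read 4896, 3496 and 5207 on KO arrays 1, 2 and 3, against 4335, 4696 and 5288 on the WT arrays. KO array 2 was lowest and the other KO arrays lay within the WT range, at -0.091 (SE 0.14, adjusted p = 0.753). The cyclin genes Ccna2 and Ccnb2 had -0.027 (SE 0.081) and 0.0051 (SE 0.10). A second, dimmer Ccna2 probe set read 2252, 2056 and 2761 in KO, against 1780, 1976 and 2007 in WT, with every KO array above every WT array (0.29, SE 0.12, adjusted p = 0.234 in a fit over every probe set). Cdc25c, a phosphatase that removes inhibitory phosphates from Cdk1, read 667, 566 and 625 in KO, against 689, 784 and 752 in WT. Its groups did not overlap, at -0.26 (SE 0.11), but the adjusted p was 0.222. Its relative Cdc25b had 0.17 (SE 0.14). All 5 measured genes of this group missed the threshold.

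None of the 4 Polo-like and Aurora kinases passed the test, and 3 of them lay below 0. Plk4, the kinase that licenses centriole duplication, read 3555, 3243 and 3467 in KO, against 4667, 4172 and 4515 in WT. Every KO array lay below every WT array, and the change of -0.38 (SE 0.083) stopped just short of the threshold (limma adjusted p = 0.0536). Plk1, the kinase of centrosome maturation and spindle assembly, read 1784, 1296 and 1739 in KO, against 2129, 2220 and 2049 in WT. Again no KO array reached the WT range, at -0.42 (SE 0.12, adjusted p = 0.0976). The spindle-pole kinase Aurka had -0.094 (SE 0.19) with a wide KO spread of 376 around a mean of 1269, against 78.9 around 1310 in WT. Aurkb, the enzyme of the passenger complex, read 931, 706 and 951 in KO, against 736, 857 and 912 in WT, so the groups overlapped (0.040, SE 0.14, adjusted p = 0.900).

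In the spindle checkpoint the lowest value of the whole list belonged to Bub1b, which encodes BubR1, a subunit of the complex that inhibits Cdc20. Bub1b read 1817, 811 and 1688 on KO arrays 1, 2 and 3, against 2152, 2191 and 2228 on the WT arrays. All KO arrays were below all WT arrays, but KO array 2 was by far the lowest, and the change of -0.69 (SE 0.24) had an adjusted p of 0.142. Without KO array 2 the change was -0.32. Bub3, which brings Bub1 and BubR1 to the kinetochore, read 5006, 4449 and 5125 in KO, against 5742, 5549 and 5639 in WT (-0.22, SE 0.081, adjusted p = 0.169). Mad2l1, the Cdc20-binding protein Mad2, had -0.19 (SE 0.080) with groups that did not overlap. Cdc20, the activator of the anaphase-promoting complex, had -0.21 (SE 0.10), and Ube2c, its ubiquitin-conjugating enzyme, -0.14 (SE 0.072). The kinase genes Bub1 and Ttk had -0.033 (SE 0.080) and 0.028 (SE 0.094). None of these 7 genes passed the test.

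The chromosomal passenger complex is made of Incenp, Birc5 (survivin), Aurkb and borealin, and it corrects faulty attachments at the centromere. Incenp, at chr19:9872295-9899489, read 4942, 4290 and 4543 on KO arrays 1, 2 and 3, against 6044, 6436 and 6201 on the WT arrays. It fell by 0.44 on the log2 scale (SE 0.081, limma adjusted p = 0.0374), or 1.36-fold, with no overlap between groups. Birc5 read 4544, 4338 and 4901 in KO, against 3533, 3788 and 4187 in WT. Its KO arrays were all above its WT arrays, at 0.26 (SE 0.091), and it did not pass (adjusted p = 0.144). The difference between Incenp and Birc5 was not tested.

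Of the kinetochore genes none passed. Cenpf, a large coiled-coil protein of the outer kinetochore, read 2063, 1851 and 1876 in KO, against 2303, 2186 and 2332 in WT. The groups did not overlap (-0.24, SE 0.089, adjusted p = 0.171). The kinesin gene Cenpe had -0.15 (SE 0.12), and the Ndc80 complex genes Ndc80 and Nuf2, whose products bind each other and the microtubule, had -0.25 (SE 0.15) and -0.0012 (SE 0.11). Cenpa, the centromeric histone H3 variant, had 0.026 (SE 0.080).

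Spindle motors and microtubule proteins held members on both sides. Hmmr, a spindle protein that works with Tpx2, read 2159, 1631 and 1905 in KO, against 2465, 2607 and 2539 in WT. The KO arrays were all lower, at -0.43 (SE 0.11, adjusted p = 0.0700). Prc1, the bundler of the central spindle, read 1662, 1524 and 1649 in KO, against 1967, 1849 and 1813 in WT, again without overlap (-0.22, SE 0.090, adjusted p = 0.203). Kif2c, a kinesin that depolymerises microtubules at the centromere, read 2878, 2002 and 2431 in KO, against 3211, 2638 and 3395 in WT. KO array 1 lay above WT array 2, so these groups overlapped (-0.35, SE 0.14, adjusted p = 0.188). Tpx2, the activator of Aurora A on the spindle, had -0.17 (SE 0.10). On the other side were Nusap1, which links microtubules to chromatin (0.18, SE 0.088, every KO array above every WT array), the chromokinesin Kif4 (0.15, SE 0.12) and the bipolar kinesin Kif11 (0.15, SE 0.10). A dimmer Kif11 probe set read 707, 718 and 776 in KO, against 800, 830 and 867 in WT. Its KO arrays were all below its WT arrays (-0.18, SE 0.11), and another Kif11 probe set had 0.14 (SE 0.18). None of the 7 genes passed.

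Cytokinesis genes meet the RhoA pathway most directly. Ect2 is the exchange factor that activates RhoA at the cell equator, Racgap1 and Kif23 form the centralspindlin complex that recruits it, and anillin (Anln) and citron kinase (Cit) act in the contractile ring and midbody. Kif23 read 1796, 1387 and 1625 in KO, against 1985, 1975 and 1906 in WT, with no overlap (-0.29, SE 0.11, adjusted p = 0.161). Racgap1 read 1168, 1226 and 1334 in KO, against 1410, 1452 and 1553 in WT. By these probe sets both centralspindlin genes were lower on every KO array, Racgap1 at -0.25 (SE 0.097, adjusted p = 0.189), though neither passed. A further probe set of each lay above 0, at 0.31 (SE 0.19) for Kif23 and 0.13 (SE 0.12) for Racgap1, with overlapping groups. Ect2 had -0.17 (SE 0.11), Anln -0.065 (SE 0.10), Cit 0.10 (SE 0.15) and Kif20a, a kinesin of the central spindle, 0.26 (SE 0.14).

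**Figure D2:**
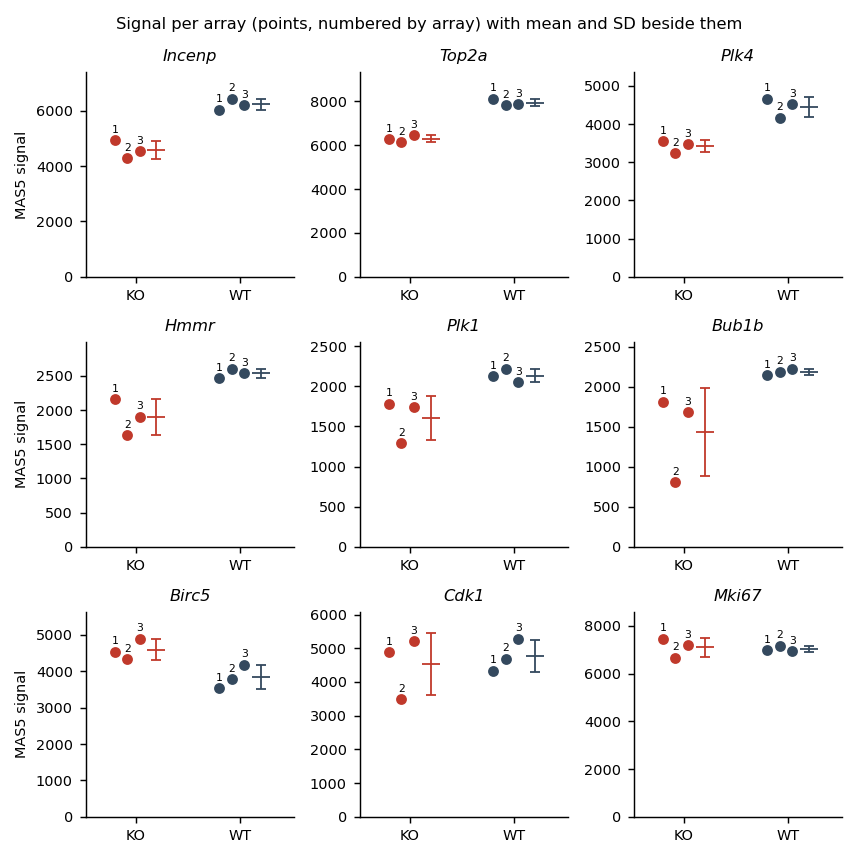
MAS5 signal (linear scale from 0) of 9 G2 and M phase genes, with a point for each KO array (left) and WT array (right), numbered by array, and the mean with SD beside them. The KO points lie wholly below the WT points for Incenp, Top2a, Plk4, Hmmr, Plk1 and Bub1b and wholly above them for Birc5, while those of Cdk1 and Mki67 overlap.

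KO array 2 stood apart within the KO group for this list. It was the lowest of all 6 arrays for 25 of the 40 members, against 26.3% of all genes tested. Measured from the WT mean, the median member lay at -0.27 on KO array 2, beside -0.067 on KO array 1 and -0.12 on KO array 3. The median of all genes tested was -0.029 on KO array 2, -0.011 on KO array 1 and -0.043 on KO array 3. KO array 2 was below the average of the other KO arrays for 33 of 40 members, against 49.6% of all genes. The gap on the log2 scale was -1.11 for Bub1b, -0.82 for Aurka, -0.53 for Cdk1, -0.53 for Ndc80 and -0.44 for Plk1, but only -0.053 for Top2a and -0.14 for Incenp. The spread within KO exceeded that within WT for 31 of 40 members, against 60.5% of all genes.

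Without KO array 2 the median log2 fold change of the list was -0.084, no member passed, and Incenp and Top2a had adjusted p of 0.0570 and 0.0807. With 2 KO arrays left, a count of non-overlapping genes cannot become smaller: 16 of 40 members then lay wholly below the WT arrays, against 20.7% of all genes, and 7 of 40 wholly above them, against 14.7%. KO array 2 is also the KO array with the high Xist signal. With log2 Xist as a covariate the median of the list was -0.25, and none of the members passed. The calls also needed each WT array and KO array 3: no member passed without any one of them, and 6 passed without KO array 1, namely Bub1b, Hmmr, Incenp, Plk1, Plk4 and Top2a.

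**Figure D3:**
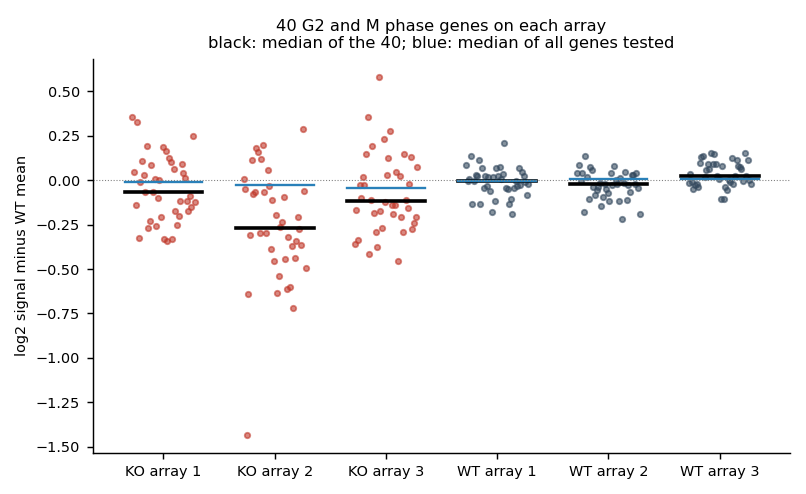
Log2 signal of 40 G2 and M phase genes on each array, as the difference from the gene's WT mean; each point is a gene, the black bar is the median of the 40 and the blue bar the median of all genes tested. The black bars stand at -0.067, -0.27 and -0.12 on KO arrays 1, 2 and 3, below the blue bars there, and close to 0 on the WT arrays.

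Other probe sets of the same genes gave a second reading. Of the 40 members 27 had more than 1 probe set, and 46 further probe sets of 26 members were bright enough to be tested. Of these 34 were lower and 12 higher in KO, with a median of -0.11, and 31 had the sign of the brighter probe set. A like median over all probe sets was not taken. A second Top2a probe set had -0.31 (SE 0.20). For Incenp the further sets had -0.35 (SE 0.12), -0.13 (SE 0.22) and 0.028 (SE 0.22), and for Hmmr all 4 were lower, from -0.48 to -0.25. Plk4 had -0.36 (SE 0.13) and 0.046 (SE 0.12). Bub1b had -0.48 (SE 0.21) in one and 1.40 (SE 0.62) in a dim one that was above the limit on 4 arrays. These values come from a fit over every probe set, in which none of the further sets named here passed an adjusted p of 0.05 and Top2a itself had 0.0611. The Incenp probe set used is 1 of 5 members' sets of the platform's cross-hybridising kind, whose probes can also match other transcripts. With a gene's probe sets averaged no member passed, and Incenp and Top2a had adjusted p of 0.422 and 0.535.

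Many promoters of the list hold the CHR, named above as an element through which such genes are transcribed. Whether the choice of the list drew on it is not known. RefSeq promoter windows of GRCm38.p6, each 300 bases long with the last 50 after an annotated start, were found for 34 of the 41 genes, in 37 windows. Incenp was among the genes without a window. A CHR, searched as TTTGAA or TTCGAA on both strands, lay within 50 bases of the start in 26 of 37 windows (70.3%), belonging to 24 genes, against 5.31% of all 32851 windows. A CCAAT box, the core of the NF-Y element, searched on both strands over the whole window, was in 28 of 37 (75.7%), against 37.4% of all windows, and 18 of 37 held at least 2, against 11.7%. Both together were in 24 of 37 windows (64.9%), against 2.24% of all. By contrast TATAAA was in 1 of 37, against 13.6%. The CHR and CCAAT letters differ, so 1 match never counts as both; windows of one gene can overlap, and all windows include those of noncoding genes. A match is only a description of these letters.

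The stretch before the Top2a start is shown because this gene fell and its window holds the most matches on the list, 6 CCAAT boxes and 4 CHR, of which those inside the stretch are in capitals. It lies at chr11:99024190-99024389 on the minus strand. The Birc5 stretch, at chr11:117849117-117849236 on the plus strand, is shown as the member with the highest fold change and no match, so it has no capitals.
Top2a: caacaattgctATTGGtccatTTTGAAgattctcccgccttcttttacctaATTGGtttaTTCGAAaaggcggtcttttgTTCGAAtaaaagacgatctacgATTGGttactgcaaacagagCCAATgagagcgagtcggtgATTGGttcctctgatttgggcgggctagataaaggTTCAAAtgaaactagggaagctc
Birc5: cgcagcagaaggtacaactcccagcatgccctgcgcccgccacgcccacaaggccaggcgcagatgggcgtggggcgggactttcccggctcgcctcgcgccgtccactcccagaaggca

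The CHR near the start is set side by side for 6 more members, in 30 bases each with the CHR in capitals. All 6 hold it as TTTGAA on the strand of the gene. The likeness of these letters is set by the search and by the choice of genes. Plk1, Hmmr, Bub1b and Cenpf had every KO array below every WT array, and the groups of Cdk1 and Ccnb2 overlapped. The stretches lie at chr7:122159453-122159482 (plus strand, Plk1), chr11:40733412-40733441 (minus, Hmmr), chr2:118598231-118598260 (plus, Bub1b), chr1:189688067-189688096 (minus, Cenpf), chr10:69352910-69352939 (minus, Cdk1) and chr9:70421533-70421562 (minus, Ccnb2).
Plk1: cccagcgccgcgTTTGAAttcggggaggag
Hmmr: agttgaggtaaaTTTGAAttcaggcgagct
Bub1b: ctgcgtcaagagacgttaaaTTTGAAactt
Cenpf: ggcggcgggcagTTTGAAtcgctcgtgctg
Cdk1: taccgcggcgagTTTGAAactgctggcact
Ccnb2: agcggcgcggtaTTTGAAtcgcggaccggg

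Cdk1 and Ccnb2, with 2 CHR and 3 CCAAT boxes in each window, had log2 fold changes of -0.091 and 0.0051, and Plk4, with neither, had -0.38. Over the measured members with a window, the 24 genes with a CHR within 50 bases of the start had a median of -0.17, with 18 below 0. The 9 genes without one had a median of -0.0012, with 5 below 0. These medians leave out Incenp, which had no window, and they describe the list and were not tested.

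**Figure D4:**
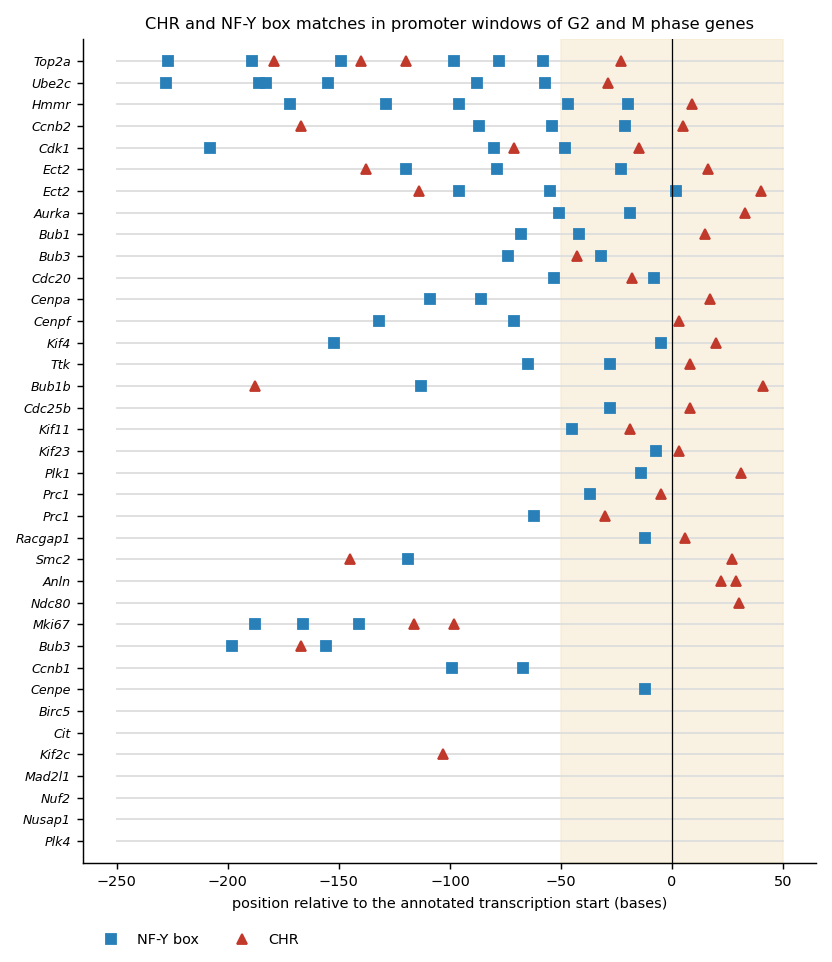
Positions of CHR (triangles) and NF-Y box (squares) matches in 37 promoter windows of G2 and M phase genes, in bases from the annotated start; the shaded band spans 50 bases on either side. In 26 of the 37 windows at least 1 CHR lies in the band, and the squares lie mostly before the start.

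Further mitotic genes outside the list were drawn from 6 lists of 137 genes in all, of which 132 were tested. Of these 2 fell, 1 rose and 129 did not pass, where 0.488% of all genes tested fell and 0.787% rose. The median was -0.040, the same to 2 decimals as for all genes tested, and 76 of 132 lay below 0, against 56.2% of all genes. Ncaph, the kleisin subunit of condensin I, fell and read 3556, 3123 and 3152 in KO, against 4478, 4589 and 4824 in WT (-0.50, SE 0.085, limma adjusted p = 0.0360). Stag1, a cohesin subunit, fell and read 1337, 1128 and 1239 in KO, against 1726, 1658 and 1740 in WT (-0.47, SE 0.098, adjusted p = 0.0474). These were 2 of 17 cohesin and condensin genes, and both had all KO arrays below all WT arrays. Of the 17 genes 3 did so, against 15.5% of all genes tested. Cenpw, an inner kinetochore protein, rose and read 2380, 2445 and 2637 in KO, against 1584, 1417 and 1840 in WT (0.63, SE 0.11, adjusted p = 0.0360). It was the 1 of 32 further kinetochore, checkpoint and passenger genes past the test, and Cenpm of the same list had -0.35 (SE 0.14).

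The remaining lists had no gene past the test. Of 17 regulators of G2 and M phase transcription, with a median of -0.15, the repressor E2f8 had -0.32 (SE 0.098) and the MuvB subunit gene Rbbp4 -0.27 (SE 0.083). Of 18 genes of mitotic entry and exit, with a median of -0.010, the Cdk1-inhibiting kinase gene Wee1 had -0.25 (SE 0.096) and Fbxo5, an inhibitor of the anaphase-promoting complex, 0.19 (SE 0.11). The 15 subunits of that complex had a median of 0.092, and 10 of them lay above 0. Its scaffold gene Anapc1 had -0.43 (SE 0.091, limma adjusted p = 0.0502) and its catalytic RING subunit gene Anapc11 0.45 (SE 0.12, adjusted p = 0.0861). Of 33 spindle, centrosome and cytokinesis genes, with a median of -0.060, the spindle-pole gene Aspm had -0.49 (SE 0.11, adjusted p = 0.0536) and the kinesin gene Kif20b -0.51 (SE 0.12, adjusted p = 0.0642). Without KO array 2 Ncaph and Cenpw still passed (adjusted p = 0.0453 and 0.0449) and Stag1 did not (0.0781). None of these 3 passed without KO array 3 or any 1 WT array, with adjusted p from 0.105 to 0.194, nor with probe sets averaged, with adjusted p of 0.106 for Ncaph, 0.169 for Cenpw and 0.790 for Stag1.

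**Figure D5:**
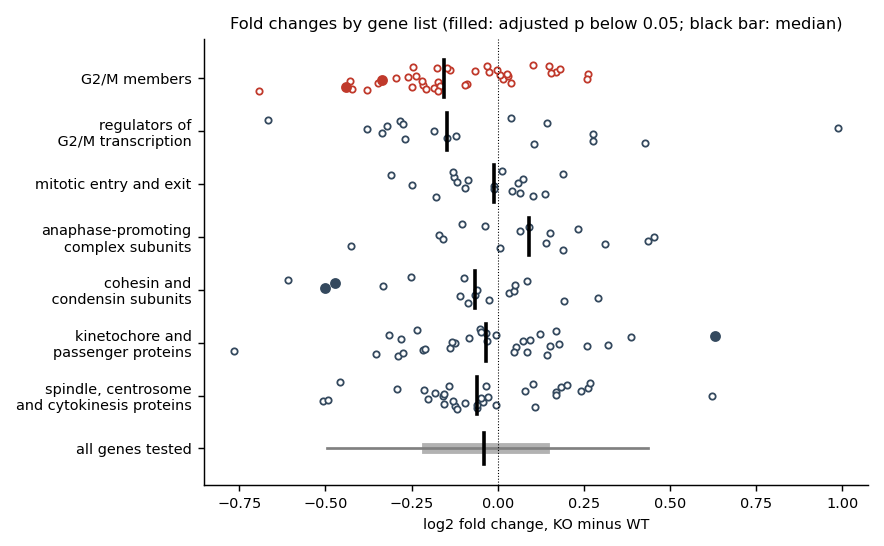
Log2 fold change, KO minus WT, of the G2 and M phase members and of 6 further mitotic lists, a point per gene (filled: adjusted p below 0.05) with the median as a black bar; the lowest line gives all genes tested, with the thick bar spanning the middle 50% and the thin line the 5th to 95th percentile. The members' median of -0.16 lies left of the median of all genes at -0.040, and the anaphase-promoting complex list lies at 0.092.

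Markers of the cell types that an embryonic heart sample can hold were set beside the list. Heart muscle markers were all measured, none of 10 passed, and their summed signal was 268230 to 290469 in KO and 276612 to 298679 in WT. Endothelial and endocardial markers (none of 8 passed) summed to 8381 to 9843 in KO and 8047 to 8970 in WT. The sum of 7 cushion mesenchyme markers was 31709 to 32981 in KO and 33150 to 35742 in WT, without overlap, and none passed. Without Vcan, the brightest of them, the sums were 18992 to 21767 in KO and 19417 to 21138 in WT and overlapped. Of the 7 cushion markers 6 lay below 0, with a median of -0.11 over the 7, and only Postn lay above, at 0.39. Epicardial markers (none of 5 tested passed) summed to 5708 to 9739 in KO and 7810 to 8193 in WT. Among primitive red cells, which divide in the circulation at this stage, none of 8 tested markers passed and the sum was 95914 to 110481 in KO and 92954 to 110860 in WT. The sums for muscle, endothelium, epicardium and red cells thus overlapped between the groups.

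Sums for other tissues were read in the same way. Markers of liver and yolk sac endoderm summed to 530 to 2225 in KO and 1791 to 7813 in WT, which overlap. Alb and Habp2 were lower past the test among 9 tested, all of which lay below 0. Habp2 read 10.4, 12.6 and 9.51 on KO arrays 1, 2 and 3, against 86.0, 104 and 71.2 on the WT arrays. Alb read 51.9, 36.8 and 20.7 in KO, against 87.8, 148 and 183 in WT. Every KO signal of Habp2, and those of Alb on KO arrays 2 and 3, fell short of the low-signal limit. The size of these falls thus cannot be read. Without Afp, the brightest of the endoderm markers, the sums were 489 to 1151 in KO and 675 to 1759 in WT and also overlapped. Foregut epithelium markers summed to 2756 to 4927 in KO and 5232 to 5827 in WT, and none of 6 tested passed. Most of that sum came from the keratin genes Krt8 and Krt18, and the other 6 foregut markers summed to 255 to 492 in KO and 337 to 700 in WT, which overlap. Neural markers summed to 1213 to 1354 in KO and 1329 to 1703 in WT, which overlap, none of 7 passing. Macrophage markers summed to 1045 to 2409 in KO and 979 to 1085 in WT, which overlap, with Lyz2 higher past the test among 8 tested. Without Lyz2, the brightest of them, the sums were 619 to 1581 in KO and 747 to 882 in WT. The KO arrays then reached both below and above the WT arrays. KO array 2 had the highest macrophage sum and the lowest muscle sum of all 6 arrays. The part of these other cells in the values of the G2 and M phase genes was not tested.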

How the data were processed

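Values deposited are probe set signals, an intensity on the linear scale, which the authors made with MAS5 in Affymetrix Expression Console, as named in the submitters' processing notes. Neither versions nor settings were found in the labels. In the files each array's mean after trimming 2% at each end was 500. Of 45101 probe sets, 64 controls were left out; 34945 of the rest had 1 gene symbol, 932 several and 9160 none in the platform annotation. Signals were taken to log2 with no further scaling. A gene was tested if its probe set with the highest mean was above the low-signal limit, each array's 40th percentile (44.5 to 52.8), on at least 3 of 6 arrays. The difference, KO minus WT, came from limma 3.58.1 under R 4.3.3 with lmFit and a trended eBayes over 12712 genes; p-values were adjusted by Benjamini-Hochberg and 0.05 was the threshold; the procedure was checked on simulated data. The embryos were 3 pairs of littermates by the series' design text, but no label ties a replicate number to a litter or says that an array holds 1 heart, so p-values measure the spread between these arrays, whose number limits the precision. Members and lists were chosen with earlier results of these data known. Per-array signals are given for members past the threshold, the 14 with the smallest p, Cdk1, Mki67, Plk1 and Aurkb; further genes are named if past the threshold or among the 2 with the smallest p of their list. Promoter windows came from a RefSeq table and were searched with Python 3.11.15. Alternatives covered normalization, filters, probe sets, variance model, weights, blocks, a sex covariate and leaving out each array; leaving out arrays in the counts of non-overlapping groups was chosen after seeing the data.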

Additional observations from a re-analysis of the deposited data

How the results depend on the processing

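Most calls depended on the processing, while the median log2 fold change of the list was below 0 under all alternatives run. It was -0.099 with arrays centred on their medians, -0.11 with probe sets averaged, -0.13 with array weights and -0.25 with the Xist covariate, a fit in which KO array 2 is the only KO array with a high Xist signal. Leaving out 1 array gave -0.18 to -0.084. Changes of signal floor, filter, intensity trend, replicate block or threshold left the list's median at -0.16, as did fitting each probe set singly. These settings leave the members' fold changes as they were, so they add nothing to its sign. Leaving aside the fit of each probe set singly, the median of all genes tested ran from -0.049 without KO array 1 to 0.019 with median centring. Members called lower numbered 2 as reported, and 0 with median centring, without the filter, with probe sets averaged, without the intensity trend and with the Xist covariate. They numbered 1 where each probe set was fitted singly, 4 with array weights, 5 at an adjusted p of 0.1 and 0 to 6 when 1 array was left out. When 1 array was left out, members with every KO array above every WT array numbered 2 to 7 of 40, against 14.1% to 17.2% of all genes. Those with every KO array below every WT array then numbered 15 to 20 of 40, against 19.5% to 23.9%. Genes called higher and lower in KO, 100 and 62 as reported (61.7% higher), numbered 67 and 16 with median centring (80.7% higher), 1 and 0 without the filter, and 180 and 111 with the stricter filter. They numbered 0 and 0 with probe sets averaged, 0 and 1 without the trend, 304 and 238 with array weights, 3 and 3 with the Xist covariate, 409 and 396 at an adjusted p of 0.1, and 0 to 457 and 0 to 459 when 1 array was left out. The cause was not tested. Without adjustment, 1086 genes were higher and 1494 lower in limma's fit.

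Signs turned for genes that had not passed. Mki67 had -0.019 with quantile normalization and -0.042 with the Xist covariate, and ranged over -0.022 to 0.060 when 1 array was left out. Aurkb had -0.017 with probe sets averaged and -0.19 with the covariate, and ranged over -0.049 to 0.18. Cdk1 had 0.0051 with array weights and ranged over -0.20 to 0.086, and Bub1b had 0.077 with probe sets averaged, which takes in its dim probe set. With the replicate number as a block 1 member passed, Incenp (adjusted p = 0.0447), and Top2a did not (0.0709); 117 genes were called higher and 72 lower. Same-numbered KO and WT arrays deviated from their group means with correlations of 0.0182, 0.0573 and 0.0150 over genes. Between differently numbered arrays the correlations ran from -0.0371 to 0.0206, the highest for KO array 3 with WT array 1. With 3 arrays in each group, such values cannot decide whether a number marks a litter. All tested members were above the low-signal limit on every array, and the part of signal level in their precision was not tested.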
